A study of Mus musculus with 24 samples.

Results

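The collagen gene family was described in whole ovaries of female C57BL/6J mice across adult life and after treatment with the senolytic drug ABT263. Members were the protein-coding genes of GENCODE release M21 whose symbol reads Col, a chain type, the letter a and a chain number, which gave 44 genes of the 54532 in the count table. Collagens are secreted proteins in which 3 polypeptide chains wind into a triple helix, and the ovary builds follicle walls, the stroma and scar tissue from them. Fibrillar collagens form the load-bearing fibers, type IV collagen forms the sheets of basement membranes around follicles and vessels, and type VI forms beaded filaments between them. FACIT collagens (fibril-associated collagens with interrupted triple helices) sit on the surface of fibrils, and types II, IX, X and XI are best known as the collagens of cartilage.

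The data were read counts from 24 libraries, each from the ovary of a different mouse, with 3 mice in each of 8 groups. Of these, 18 mice formed a natural aging series and were collected at 3, 6, 9, 12, 18 and 25 months. The other 6 mice received ABT263, an inhibitor of the BCL-2 family given to kill senescent cells, by oral gavage in monthly cycles over 3 months from the age of 3 months, and were collected at 6 or at 9 months. The 6- and 9-month mice of the aging series also served as the controls of the treated mice, so the same 6 libraries stood as aged ovaries in one comparison and as controls in another. The sample labels call these controls naturally aging mice, while the study's methods describe controls given vehicle, and at 9 months both control and treated mice had been housed with males for a fertility assay. No allele or transgene was involved. The libraries held between 16361877 and 21049389 counts (median 19207589), and levels are given as CPM, counts scaled to the library total, where 3 counts correspond to 0.156 CPM at the median depth. Genes called in the text had an adjusted p under 0.05 in edgeR's quasi-likelihood test, with Benjamini-Hochberg adjustment over all genes tested. The 5 age comparisons share the same 3 mice at 3 months and are not independent of each other.

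The labelled tissue was checked against markers of ovarian cells, and several libraries stood apart. Granulosa cell markers, 9 genes of the cells around the oocyte, summed to 4033 ± 284 CPM (SD, n = 3) at 3 months, but to 308, 603 and 2130 CPM in the 25-month mice, of which mouse 3 was the highest. Mouse 2 at 12 months had 1291 CPM of granulosa markers against 4574 and 5055 CPM in the other mice of its group, and also 2340 CPM of smooth muscle and pericyte markers against 990 and 1187 CPM. Oocyte markers summed to 383 ± 56.8 CPM at 3 months, 235 ± 14.3 at 6, 148 ± 60.9 at 9, 91.6 ± 52.7 at 12, 43.0 ± 7.77 at 18 and 21 ± 10.1 at 25 months. Oviduct markers reached 176.3 CPM in mouse 3 at 6 months and 38.9 CPM in mouse 3 at 3 months, against 1.77 to 15.1 CPM in the other 22 libraries. Markers of the corpus luteum summed to 13966 CPM in mouse 3 at 18 months against 5593 and 5518 CPM in its group, and to 21365 CPM in mouse 1 at 12 months against 9853 and 7851 CPM. In bulk tissue, fewer cells of a type and less RNA per cell cannot be told apart.

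The upstream sequences of the collagen genes that changed most clearly with age are shown here so that the pair that fell (Col9a2 and Col11a1) and the trio that rose (Col6a5, Col8a2 and Col23a1) can be read side by side. They are the bases before each gene's start in RefSeq on GRCm38.p6, 5′ to 3′ on the strand of the gene, up to 250 bases and without annotated exon bases. Capitals mark GGGCGG (the GC box) and CCAAT, on either strand. The Col9a2 sequence, chr4:121039316-121039384 on the plus strand, has 69 bases, since the other 181 of its window are annotated as exon. The Col11a1 sequence is chr3:114030290-114030539 on the plus strand and the Col6a5 sequence chr9:105960644-105960893 on the minus strand. The Col8a2 sequence is chr4:126286544-126286792 and the Col23a1 sequence chr11:51289670-51289919, both on the plus strand.
Col9a2: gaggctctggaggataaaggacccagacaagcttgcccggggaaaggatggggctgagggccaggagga
Col11a1: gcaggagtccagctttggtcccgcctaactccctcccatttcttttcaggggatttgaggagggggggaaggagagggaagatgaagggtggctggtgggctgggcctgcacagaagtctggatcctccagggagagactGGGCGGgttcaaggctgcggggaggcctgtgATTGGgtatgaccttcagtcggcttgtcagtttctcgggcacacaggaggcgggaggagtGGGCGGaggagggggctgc
Col6a5: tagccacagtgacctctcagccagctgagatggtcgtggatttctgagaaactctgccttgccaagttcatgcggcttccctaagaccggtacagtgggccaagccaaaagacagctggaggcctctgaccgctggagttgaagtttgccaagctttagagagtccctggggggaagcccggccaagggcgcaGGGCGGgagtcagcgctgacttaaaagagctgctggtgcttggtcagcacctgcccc
Col8a2: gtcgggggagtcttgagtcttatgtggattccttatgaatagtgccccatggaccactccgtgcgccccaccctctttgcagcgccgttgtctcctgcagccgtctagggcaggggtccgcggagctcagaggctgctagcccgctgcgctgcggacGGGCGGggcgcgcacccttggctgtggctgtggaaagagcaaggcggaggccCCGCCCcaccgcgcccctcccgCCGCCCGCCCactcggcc
Col23a1: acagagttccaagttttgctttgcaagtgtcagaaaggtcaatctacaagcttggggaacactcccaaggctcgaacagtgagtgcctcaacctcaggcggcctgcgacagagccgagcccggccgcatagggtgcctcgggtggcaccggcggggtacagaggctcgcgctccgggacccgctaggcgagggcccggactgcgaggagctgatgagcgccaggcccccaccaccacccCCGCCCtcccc

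Within the bases printed, GGGCGG occurred 2 times for Col11a1, 1 time for Col6a5, 4 times for Col8a2, where the last 2 overlap, and 1 time for Col23a1, and CCAAT 1 time for Col11a1. For Col9a2, GGGCGG occurred 0 times in the 69 bases printed, but 2 times in its full window of 250 bases. In the full windows of 250 bases, 32.7% of 32851 RefSeq upstream windows held GGGCGG, against 60.0% of the 35 collagen genes with an entry (21 genes). CCAAT was in 33.8% of all windows and in 34.3% of the collagen windows, and TATAAA in 12.4% and 14.3%. GGGCGG stood upstream of genes that fell and of genes that rose, and a match describes letters, not a bound site. Col4a1 and Col4a2, the genes of the main basement membrane chains, run away from each other from starts 21 bases apart (8:11312826 on the minus strand and 8:11312805 on the plus strand) and share the bases between them.

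Per length, 6 genes carried most of the family's mRNA: the order by mean CPM per kilobase of exon over the 24 libraries began with Col6a1 (179), Col4a1 (131), Col3a1 (119), Col4a2 (93.3), Col1a1 (81.1) and Col1a2 (79.2). These encode a chain of the type VI beaded filament, both main type IV chains, the type III chain and both type I chains. The next were Col6a2 (48.0), Col6a4 (27.9), Col6a3 (24.6), Col15a1 (24.2) and Col5a1 (23.5). Length here is that of all annotated exons of a gene together, for example 12426 bases for Col1a2 and 6563 for Col1a1. The order therefore depends on the annotation as well as on the counts. All 44 genes together took 0.569%, 0.861% and 0.820% of the counts in the 3-month mice and 0.485%, 0.417% and 0.796% in the 25-month mice. The highest share of the 24 libraries was 1.32%, in mouse 2 at 12 months.

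Of the 8 cartilage-type genes, those of the defining cartilage collagens were nearly silent. Col2a1, the main collagen of cartilage, had 0 to 11 counts per library, and 9 of the 24 libraries had 3 or fewer. Col10a1, a marker of hypertrophic chondrocytes, also had 0 to 11 counts, with 14 libraries at 3 or fewer. Col9a1 had 0 to 6 counts, with 22 libraries at 3 or fewer, and the FACIT gene Col19a1 0 to 8 counts. These 4 genes were below the filter on low counts in the comparisons with all mice, which left 40 collagen genes to test. Col10a1 and Col2a1 passed it in some fits that left out 1 mouse, where neither was called. Across all alternatives 37 to 44 collagen genes were tested.

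Type IX collagen is a FACIT collagen made of 1 chain from each of Col9a1, Col9a2 and Col9a3, but here only Col9a2 was abundant. At 3 months it stood at 22.8 CPM per kilobase, against 0.723 for Col9a3 and 0.010 for Col9a1. Type XI collagen, a minor fibrillar collagen that combines the products of Col11a1, Col11a2 and Col2a1, was likewise uneven at 3 months, with 7.73 CPM per kilobase for Col11a1, 1.15 for Col11a2 and 0.029 for Col2a1.

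Col9a2 (ENSMUSG00000028626, 4:121039385-121055322) was at 79.1, 67.1 and 65.9 CPM in the 3-month mice and at 71.2, 51.4 and 29.0 CPM at 6 months. It was at 17.5, 8.89 and 19.7 CPM at 9 months and at 29.2, 4.06 and 11.7 CPM at 12 months. The oldest mice had 2.67, 2.42 and 3.91 CPM at 18 months and 5.74, 6.16 and 6.02 CPM at 25 months. All mice at 9 months or older were below all 3-month mice, while the 6- and 3-month groups overlapped. Relative to 3 months, Col9a2 fell by 4.57 on the log2 scale at 18 months (SE 0.207, adjusted p = 0.000369) and by 3.57 at 25 months (SE 0.147, adjusted p = 0.00036), and both calls were kept in all 6 fits that left out 1 mouse. At 9 and 12 months the log2 fold changes were -2.21 (SE 0.28, adjusted p = 0.115) and -2.26 (SE 0.59, adjusted p = 0.169). Of its partner chains, Col9a3 was at 2.42, 2.82 and 3.11 CPM at 3 months, at 1.84, 2.22 and 1.49 CPM at 18 months and at 3.47, 2.87 and 2.69 CPM at 25 months. In between it was at 2.17, 1.83 and 2.28 CPM at 6 months, at 1.62, 1.77 and 2.16 CPM at 9 months and at 2.49, 1.87 and 3.09 CPM at 12 months. It gave log2 fold changes of -0.60 at 9 months (SE 0.28, adjusted p = 0.396) and -0.60 at 18 months (SE 0.296, adjusted p = 0.27), both without overlap with 3 months, and 0.11 at 25 months (SE 0.28, adjusted p = 0.808), with overlap. Col9a3 shares exon bases with Tcfl5 on the opposite strand, and reads of the pair may not have been told apart, since the strand setting of the counting is not given in the sources used here. Tcfl5 itself was listed at 0 to 0.496 CPM in the 24 libraries. Col9a1 was below the filter.

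Col11a1 (ENSMUSG00000027966, 3:114030540-114220718) was the other collagen gene that fell at both late ages. It was at 114.4, 99.1 and 82.1 CPM at 3 months, at 42.1, 21.8 and 23.8 CPM at 18 months and at 28.4, 9.08 and 16.7 CPM at 25 months. In between, the mice had 106.7, 74.7 and 54.6 CPM at 6 months, 42.2, 49.4 and 45.2 CPM at 9 months and 87.6, 33.6 and 27.3 CPM at 12 months. The 9-, 18- and 25-month groups lay wholly below the 3-month group, and mouse 1 at 12 months reached into its range. Col11a1 fell by 1.77 on the log2 scale at 18 months (SE 0.27, adjusted p = 0.0097) and by 2.45 at 25 months (SE 0.379, adjusted p = 0.0042), while the log2 fold change at 9 months was -1.13 (SE 0.15, adjusted p = 0.115). The call at 25 months was kept with each mouse left out in turn, and that at 18 months was lost without mouse 1 at 3 months (adjusted p = 0.0529).

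**Figure D1:**
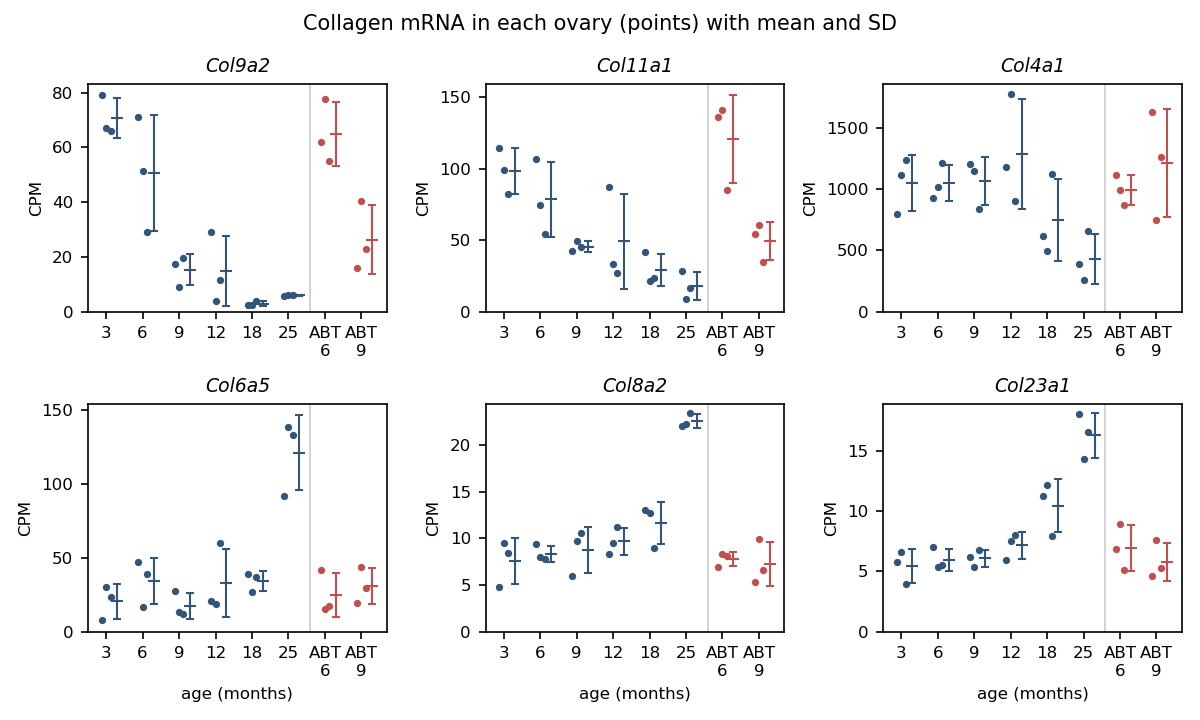
Levels of 6 collagen genes in CPM (vertical axes, linear) against age in months, with the ABT263 groups in red at the right of each panel. Points are single ovaries and bars show mean ± SD of 3 mice: Col9a2 falls from 70.7 CPM at 3 months to 3.00 at 18 months, while Col6a5 stands at 121.5 CPM at 25 months against 20.5 at 3 months.

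The family was then compared as a whole with the rest of the transcriptome at each age. At 6 months, 0 of 40 collagen genes were called, as were 0% of all 17313 genes. At an unadjusted p under 0.05 there was 1 (2.5%, against 9.1% of all genes), and DESeq2 called 0. At 9 months edgeR again called 0 (0% of all genes), with 4 at an unadjusted p under 0.05 (10% against 13.6%), while DESeq2 called Col9a2 and Col11a1 lower and 2.81% of all genes. At 12 months edgeR called 0 collagen genes, against 0.0289% of all genes, with 4 at an unadjusted p under 0.05 (10% against 14%) and 0 calls by DESeq2 (3.99% of all genes). The smallest unadjusted p at 6 months was that of Col14a1, a FACIT gene at 16.7, 5.69 and 11.2 CPM at 3 months and at 5.72, 5.40 and 7.64 CPM at 6 months (log2 fold change -0.85, adjusted p = 0.521), and the groups overlapped. It was followed by Col6a3, at 313, 267 and 269 CPM at 6 months (0.31, adjusted p = 0.568), and Col20a1, at 23.3, 10.4 and 18.4 CPM (-0.65, adjusted p = 0.568). After Col9a2 and Col11a1, the gene with the smallest p at 9 months was Col26a1, at 19.3, 19.4 and 15.4 CPM at 3 months and at 14.1, 11.5 and 11.4 CPM at 9 months (-0.56, adjusted p = 0.241). At 12 months Col9a2 was followed by Col4a4, a chain of mature basement membranes, at 66.0, 63.2 and 65.1 CPM at 3 months and at 42.7, 33.1 and 51.2 CPM at 12 months (-0.62, adjusted p = 0.17), and by Col6a3, at 259, 351 and 375 CPM (0.52, adjusted p = 0.289). The groups of Col26a1, of Col4a4 and, at both ages, of Col6a3 did not overlap. The counts at an unadjusted p under 0.05 depended on single mice and on the processing, and were not below the share of all genes throughout. Without a filter on low counts there were 7 at 6 months (15.9% against 8.04%), 6 at 9 months (13.6% against 10.8%) and 7 at 12 months (15.9% against 10.2%). DESeq2 gave 4 at 6 months (10.3% against 8.74%) and 4 at 12 months (9.3% against 13.2%). At 6 months there were 5 without mouse 2 at 3 months (12.2% against 11.3%), and at 9 months 9 without mouse 1 of that age (22.5% against 16.2%) and 2 without mouse 3 (5% against 12.3%). At 12 months there were 9 without mouse 1 of that age (22.5% against 17.5%) and 2 without mouse 3 (5% against 12%), and 10 with same-numbered mice taken as pairs (25% against 15.1%).

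At 18 months 4 collagen genes were called, which is 10% of those tested against 8.18% of all genes. Col9a2, Col11a1 and Col18a1 fell and Col6a3 rose, while of all genes 3.48% were called lower and 4.7% higher. Without mouse 3 at 18 months, the one with the most corpus luteum markers of its group, 8 were called (20% against 16.8% of all genes), the same 4 with Col4a1, Col4a6, Col6a4 and Col23a1. Without mouse 1 or mouse 2 of that age, or mouse 2 or mouse 3 at 3 months, 2 were called, Col9a2 and Col11a1 (5%, against 3.7%, 4.38%, 3.54% and 2.72% of all genes). At 25 months 8 were called, 20% against 26.7% of all genes. Col6a5, Col8a2, Col23a1 and Col4a6 were higher (15.2% of all genes) and Col9a2, Col11a1, Col4a1 and Col20a1 lower (11.4% of all genes). At 18 months the share of collagen genes called was near the background, with a small number of genes called. It was a little above the background in each alternative (16.3% against 11.8% with DESeq2, 13.6% against 7.71% without a filter on low counts, 10.5% against 6.29% with at least 10 counts in every library, 7.5% against 2.2% without mouse 1 at 3 months). The alternatives reuse the same mice and are not independent of each other. At 25 months the share was below the background, but not in every alternative. It was above it with DESeq2 (30.2% against 23.8%), without a filter on low counts (25% against 15.7%) and with same-numbered mice as pairs (27.5% against 23.7%). It was also above it without mouse 1 at 3 months (20% against 16.5%) and without mouse 3 at 25 months (42.5% against 32.1%). The median log2 fold change of the 40 genes was -0.11 at 18 months and -0.09 at 25 months, where the median of all genes was 0.00 and 0.01. Taking same-numbered mice as pairs, which the labels do not state, 6 collagen genes were called at 18 months (15%, against 11.4% of all genes). These were the same 4 with Col23a1 higher and Col13a1 lower. Tested for any difference among the 6 ages, 8 of 40 were called (20%, against 22% of all genes). This share was above the background with DESeq2 (27.9% against 26.6%), with all 24 libraries in 1 fit (27.5% against 26.1%) and without the filter (27.3% against 12%). With 1 mouse left out it lay on either side (16.7% against 14.7% without mouse 2 at 25 months, 14.3% against 18.6% without mouse 2 at 3 months).

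**Figure D2:**
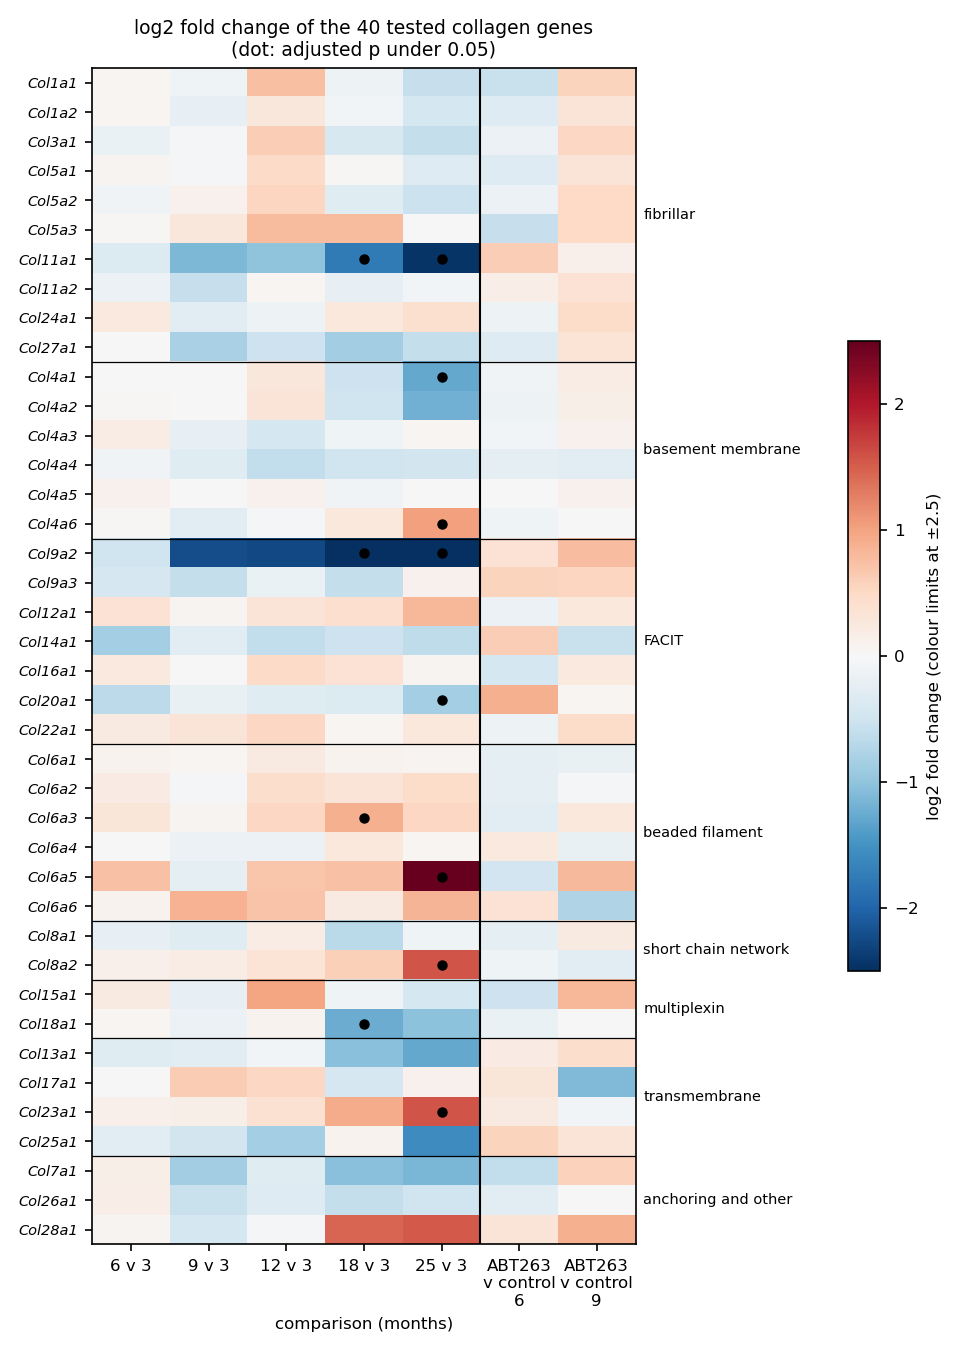
Heat map of the log2 fold change of the 40 tested collagen genes (rows, by class) in the 5 age comparisons against 3 months and the 2 ABT263 comparisons (columns), with dots on adjusted p under 0.05. The dots are confined to the 18- and 25-month columns, with 4 and 8 genes.

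Of the 10 fibrillar genes tested, 8 had a log2 fold change below 0 at 25 months, with a median of -0.49, and Col11a1 alone was called. The abundant members overlapped between ages. Col1a1 (ENSMUSG00000001506), the gene of the larger part of type I collagen, was at 299, 664 and 568 CPM at 3 months and at 330, 217 and 480 CPM at 25 months (log2 fold change -0.58, SE 0.37, adjusted p = 0.286). Col1a2, its partner chain, was at 780, 1196 and 1061 CPM and at 682, 444 and 1099 CPM (-0.45, adjusted p = 0.363). Col3a1, the type III chain that builds thin reticular fibers, was at 823, 1434 and 1225 CPM and at 728, 577 and 1010 CPM (-0.59, adjusted p = 0.161). In each of the 3 genes, mouse 3 was the highest of the 25-month mice and lay within the range of the 3-month mice.

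Mouse 3 at 25 months was also the highest of its group for granulosa markers and for markers of the corpus luteum, which summed to 1288, 2976 and 5982 CPM in the 25-month mice and to 9282 ± 2742 CPM at 3 months. The part of these cells in the collagen levels was not tested. Without mouse 3, 12 collagen genes were called lower and 5 higher at 25 months, in place of 4 and 4, which is 42.5% of the 40 against 32.1% of all genes in the same fit (14.9% lower and 17.2% higher), and the median of the family was -0.43. Without mouse 2 or mouse 3 at 3 months, or mouse 1 or mouse 2 at 25 months, 2 of 40 were called lower. Of all genes 7.65%, 6.65%, 7.98% and 7.08% were called lower in these fits. Without mouse 1 at 3 months 5 were called lower (6.93% of all genes). The genes added without mouse 3 at 25 months on the lower side included Col1a2, Col3a1, Col5a2, Col8a1, Col4a2, Col4a4, Col18a1, Col13a1 and Col26a1, and Col12a1 was added on the higher side. Col9a2, Col11a1, Col6a5, Col8a2 and Col23a1 were called in all 6 fits that left out 1 mouse, whereas Col4a6 was called in 3 of the 6, Col4a1 in 1 (without mouse 3 at 25 months) and Col20a1 in 1 (without mouse 1 at 3 months).

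At 12 months the fibrillar genes spread most. Col1a1 was at 395, 1563 and 596 CPM and Col3a1 at 822, 3396 and 1096 CPM, so that mouse 2 had more than any other of the 24 libraries for both genes. This was the mouse with few granulosa markers and many smooth muscle markers, and also with 1540 CPM of macrophage markers against 550.3 and 964 CPM in its group. The part of these cells in its collagen levels was not tested. Without mouse 2, the median log2 fold change of the collagen family at 12 months was -0.03 in place of 0.20, and 0 genes were called in either case. Without mouse 1 at 12 months, Col9a2 and Col11a1 were called lower (5% of the 40 genes, against 1.98% of all genes called). Col1a2 was at 804, 1753 and 1149.9 CPM at 12 months, again highest in mouse 2, and at 1094, 819 and 763 CPM at 9 months.

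At 18 months the abundant fibrillar genes overlapped with 3 months. Col1a1 was at 517, 351 and 549 CPM (log2 fold change -0.13, adjusted p = 0.849), Col1a2 at 1089.9, 968 and 867 CPM (-0.07, adjusted p = 0.87) and Col3a1 at 743, 804 and 1113 CPM (-0.40, adjusted p = 0.366).

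Of the 6 collagen genes most abundant per length, Col4a1 of the basement membrane was the one called at 25 months. Col4a1 (ENSMUSG00000031502, 8:11198423-11312826) was at 796, 1117 and 1236 CPM at 3 months, at 619, 495 and 1124 CPM at 18 months and at 387, 257 and 657 CPM at 25 months. In between it was at 923, 1015 and 1212 CPM at 6 months, at 1202, 1145 and 839 CPM at 9 months and at 1179, 1773 and 904 CPM at 12 months. Its group means were 1050 CPM at 3 months, 1050 CPM at 6 months and 1062 CPM at 9 months. The 25-month mice were all below the 3-month mice, and Col4a1 fell by 1.28 on the log2 scale (SE 0.35, adjusted p = 0.0333), but its adjusted p reached 0.105 with 1 mouse left out. Col4a2, its partner in the same network, was at 443, 708 and 817 CPM at 3 months and at 249.96, 168 and 443 CPM at 25 months (log2 fold change -1.19, SE 0.38, adjusted p = 0.0556). At the other ages Col4a2 was at 566, 647 and 816 CPM at 6 months, at 654, 806 and 529.98 CPM at 9 months, at 734, 1136 and 597 CPM at 12 months and at 379, 317 and 724 CPM at 18 months, overlapping with 3 months throughout. The exons of both genes overlap on opposite strands at their starts, and the strand setting of the counting is not given in the sources used here.

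The chains of type IV collagen did not move together at 25 months. The ratio of Col4a1 to Col4a2, per length, stayed between 1.26 and 1.63 in all 24 libraries, with a median of 1.39. In contrast, Col4a6 rose. Col4a6 (ENSMUSG00000031273), a chain of basement membranes of smooth muscle and some epithelia, was at 31.0, 33.5 and 32.9 CPM at 3 months and at 51.1, 50.7 and 95.4 CPM at 25 months (log2 fold change 1.02, SE 0.26, adjusted p = 0.0255), and lost its call without any 1 of the 3-month mice. Its neighbor and partner Col4a5 was at 89.4, 86.1 and 98.1 CPM and at 67.0, 74.3 and 132 CPM. The ratio of Col4a5 to Col4a6 per length was 3.33 ± 0.256 at 3 months and 1.65 ± 0.0917 at 25 months (SD, n = 3 each), and all 25-month mice were below all 3-month mice. The summed level of the 6 basement membrane genes was 1905 ± 422 CPM at 3 months and 935 ± 408 CPM at 25 months.

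All 6 beaded filament genes, those of type VI collagen, had a log2 fold change above 0 at both 18 and 25 months, with medians of 0.29 and 0.48. At each age 1 of the 6 was called, against 8.18% of all genes at 18 months and 26.7% at 25 months. With 1 mouse left out, the uncalled Col6a1 and Col6a6 could fall below 0 at 18 months, and Col6a1, Col6a2 and Col6a4 at 25 months. Col6a5 (ENSMUSG00000091345, 9:105856078-105960643), a minor type VI chain, was at 7.80, 30.4 and 23.3 CPM at 3 months, at 39.3, 26.6 and 36.9 CPM at 18 months and at 92.0, 139 and 133 CPM at 25 months. It was 5.93-fold higher at 25 months (log2 fold change 2.57, SE 0.455, adjusted p = 0.00653), and the lowest 25-month mouse was above every 3-month mouse. Col6a3, the long chain that all classical type VI trimers contain, was at 186, 243 and 254 CPM at 3 months and at 473, 489 and 321 CPM at 18 months, a rise of 0.90 (SE 0.205, adjusted p = 0.0391). Mouse 3, the lowest of the 18-month mice for Col6a3, was the one with the most corpus luteum markers, whose part was not tested. At 25 months Col6a3 was at 290, 221 and 460 CPM and overlapped with 3 months, and its call at 18 months was kept in 1 of 6 fits that left out 1 mouse, the fit without mouse 3 at 18 months. Col6a1, the most abundant member per length, gave a log2 fold change of 0.07 at 25 months (adjusted p = 0.907).

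Col8a2 and Col23a1 rose from low levels in every 25-month mouse. Col8a2 (ENSMUSG00000056174, 4:126286793-126314330) encodes a short chain of the hexagonal networks known from the cornea and vessel walls. It was at 4.84, 9.47 and 8.42 CPM at 3 months, at 13.1, 12.7 and 9.02 CPM at 18 months and at 22, 22.3 and 23.5 CPM at 25 months, a 2.98-fold rise (log2 fold change 1.57, SE 0.264, adjusted p = 0.00537). The 3 mice at 25 months differed little from each other (SD 0.755 CPM) and all exceeded the 18-month mice. Col23a1 (ENSMUSG00000063564, 11:51289920-51583918), a transmembrane collagen of the cell surface, was at 5.76, 6.65 and 3.93 CPM at 3 months, at 11.3, 12.1 and 7.98 CPM at 18 months and at 18.0, 14.3 and 16.5 CPM at 25 months, a 2.99-fold rise (1.58, SE 0.25, adjusted p = 0.00448). At 18 months the Col23a1 groups did not overlap either, with a log2 fold change of 0.93 (adjusted p = 0.0829).

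2 further genes were called lower at a single age. Col18a1 (ENSMUSG00000001435), a basement membrane collagen whose end fragment is endostatin, was at 104, 186 and 184 CPM at 3 months and at 55.9, 55.5 and 91.8 CPM at 18 months (fell by 1.23, SE 0.28, adjusted p = 0.0396). Mouse 3 at 18 months was again apart from the others, here as the highest. Its call at 18 months was kept in 2 of 6 fits that left out 1 mouse, those without mouse 1 at 3 months and without mouse 3 at 18 months. At 25 months Col18a1 was at 45.2, 52.3 and 135 CPM and overlapped with 3 months. Under some alternatives it was called lower at 25 months too. These were DESeq2, no filter on low counts, all 24 libraries in 1 fit, same-numbered mice as pairs, and mouse 3 of that age left out. Col20a1 (ENSMUSG00000016356), a FACIT collagen, was at 19.5, 25.5 and 36.1 CPM at 3 months and at 14.5, 17.6 and 12.9 CPM at 25 months (fell by 0.85, SE 0.25, adjusted p = 0.0434). In all, 13 of the 44 collagen genes share exon bases with another annotated gene, Col20a1 with 1 on its own strand (BX649560.1), and their reads may be split or lost there.

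The summed level of the cartilage-type collagens was lower from 9 months on, carried by a few genes. The 8 genes summed to 281, 301 and 334 CPM at 3 months, 266 ± 42.5 CPM at 6, 140 ± 7.83 at 9, 164 ± 33.1 at 12, 110 ± 13.6 at 18 and 118 ± 11.5 CPM at 25 months. All mice from 9 months on were below the 3-month mice, and Col9a2, Col11a1 and Col27a1 made up nearly all of this sum. Col27a1, a fibrillar gene, was at 79.7, 122 and 173 CPM at 3 months, at 75.6, 80.5 and 58.9 CPM at 9 months and at 72.3, 67.5 and 66.3 CPM at 18 months (log2 fold change -0.88, adjusted p = 0.0807). All 5 tested cartilage-type genes were below 0 at 9 and at 18 months, with medians of -0.82 and -0.88, whereas 1 of the 5 was above 0 at 12 months (Col11a2, 0.04) and 1 at 25 months (Col9a3, 0.11). Other cartilage markers did not share one direction: their most abundant gene, Cnmd (chondromodulin), was at 153 ± 51.9 CPM at 3 months and 15.6 ± 6.42 CPM at 25 months (log2 fold change -3.30, SE 0.36, adjusted p = 0.0016). By contrast, Acan (aggrecan) rose by 2.39 at 18 months (adjusted p = 0.013) and Sox9, a transcription factor known from cartilage, by 1.29 at 25 months (adjusted p = 0.00801). The changes of the remaining cartilage markers are not given here, so these genes do not stand for the list. The summed oocyte markers were also lower at 18 and 25 months than at 3 months, and the summed granulosa markers at 25 months, by the levels given above. Their part in the collagen results was not tested.

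The other genes of the collagen pathway were counted by role. Of 84 tested genes of the collagen pathway, 18 were called higher and 16 lower at 25 months (40.5% against 26.7% of all genes). At 18 months 6 of 83 were called higher and 5 lower (13.3% against 8.18%, with 4.7% of all genes higher and 3.48% lower). With same-numbered mice taken as pairs, 8 were called higher and 8 lower at 18 months (11.4% of all genes, 6.19% higher and 5.26% lower). At 6, 9 and 12 months edgeR called 0, with 13, 8 and 11 at an unadjusted p under 0.05, against 9.1%, 13.6% and 14% of all genes. DESeq2 called 0 at 6 months, 1 higher and 1 lower of 85 at 9 months (2.81% of all genes) and 5 higher of 87 at 12 months (3.99% of all genes, 2.01% higher). Without mouse 1 at 12 months edgeR called 4 higher and 1 lower of 84 (1.98% of all genes), with 19 and 4 at an unadjusted p under 0.05. Across the 6 fits without 1 mouse, the counts at 25 months ran from 10 to 19 higher and from 3 to 27 lower. Without mouse 3 at 25 months 19 were higher and 27 lower of 85, against 32.1% of all genes called. Without mouse 1 there it was 12 and 5 of 85 (19.5%), and without mouse 2 there 13 and 3 of 84 (17.4%), both near the share of all genes. Leaving out mouse 1, 2 or 3 at 3 months gave 13 and 6, 15 and 8, and 10 and 7 of 86, against 16.5%, 17.9% and 15.7% of all genes. At 18 months they ran from 0 to 14 higher and from 0 to 12 lower. Without mouse 1, 2 or 3 at 3 months they were 0 and 0, 2 and 1, and 0 and 2 of 86. These were at or below the share of all genes (2.2%, 3.54% and 2.72%). Without mouse 1 at 18 months they were 4 and 3 of 85 (3.7% of all genes), and without mouse 2 there 5 and 1 of 83 (4.38%). Without mouse 3 there they were 14 and 12 of 86 (16.8%). The roles that follow can be read against 15.2% of all genes higher and 11.4% lower at 25 months. Of the 18 genes called higher, 10 were called in each of the 6 fits without 1 mouse (Dcn, Lair1, Ltbp2, Lum, Mmp19, Reck, Tgfbr2, Tgm2, Timp2 and Timp3), and of the 16 called lower, 3 were (Ccn2, Ltbp1 and P3h4), so that the calls of the other genes named here depend on single mice. Among 18 genes of hydroxylation and folding, 7 were called lower at 25 months and 0 higher, with 1 (P3h4) without mouse 2 at 25 months to 12 without mouse 3. Serpinh1, the collagen chaperone HSP47, was at 734, 1227 and 1270 CPM at 3 months and at 446, 414 and 653 CPM at 25 months, and fell by 1.09 (SE 0.27, adjusted p = 0.0236), but was called in 2 of 6 fits that left out 1 mouse. The other 6 were the prolyl hydroxylase genes P4ha3 (-2.92), P3h1 (-0.96) and P4hb (-0.53), the scaffold gene P3h4 (-0.83), the folding enzyme gene Fkbp10 (-0.81) and the lysyl hydroxylase gene Plod1 (-0.43).

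Among 6 cross-linking genes, Lox (lysyl oxidase) was at 30.5, 51.9 and 32.8 CPM at 3 months and at 15, 11 and 22.9 CPM at 25 months, and fell by 1.24 (SE 0.32, adjusted p = 0.0257), also called in 2 of 6 such fits, those without mouse 1 at 3 months and without mouse 3 at 25 months. Tgm2 (a transglutaminase) and Loxl4 rose by 1.55 and 1.49. Of 12 genes of secretion and propeptide removal, Adamts3 rose (1.95), and Tll2 (-3.62), Sec23a (-0.62) and Adamts2 (-0.59) fell. Fibril-binding proteoglycans gave 4 higher and 2 lower of 9. Dcn (decorin), the most abundant of them, was at 269, 326 and 354 CPM at 3 months and at 1546, 1880 and 1668 CPM at 25 months, and rose by 2.42 (SE 0.18, adjusted p = 0.000663), called in all 6 such fits. Lum (lumican) rose by 1.75 and Bgn (biglycan) by 1.05, whereas Omd and Fmod fell by 1.42 and 0.87.

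Of 12 degradation genes 4 rose and 0 fell at 25 months: the metalloproteinase genes Mmp3 (3.69) and Mmp19 (1.65), Ctsk (cathepsin K, 1.60) and the collagen uptake receptor Mrc2 (0.93). Of 6 inhibitors, Reck (1.33), Timp2 (1.06) and Timp3 (0.93) rose, while Timp1 was at 33.9, 132 and 49.7 CPM at 3 months and at 35.8, 32.1 and 68.3 CPM at 25 months (-0.66, adjusted p = 0.386). Of 8 collagen receptors, Lair1 of leukocytes (2.37) and Ddr2 (0.64) rose and Itga2, an integrin chain, fell (-1.84). Of 13 genes of TGF-beta signalling, Ltbp2 (1.65) and Tgfbr2 (1.23) rose and Ltbp1 (-2.80) and Ccn2 (-1.65) fell, which is 30.8% called against 26.7% of all genes, near the background. Stromal fibroblast markers, of which Dcn is the most abundant, summed to 690 ± 36.1 CPM at 3 months and 2613 ± 102 CPM at 25 months, and macrophage markers to 372 ± 52.8 and 3079 ± 1998 CPM. Their part in the pathway results was not tested.

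**Figure D3:**
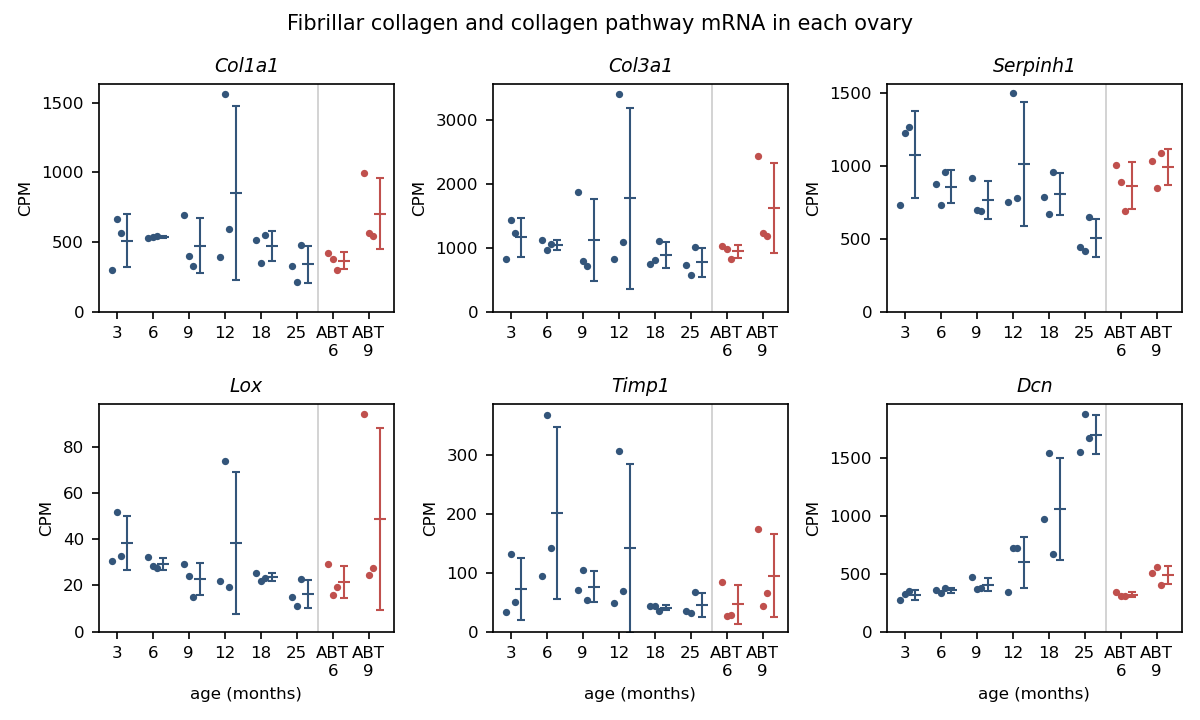
CPM of the fibrillar genes Col1a1 and Col3a1 and of Serpinh1, Lox, Timp1 and Dcn in each ovary (points; mean ± SD of 3 mice as bars) against age in months, ABT263 groups in red. Dcn rises to 1546 to 1880 CPM at 25 months, whereas Serpinh1 and Lox end below every 3-month mouse.

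ABT263 was compared with the controls of the same age. At 6 months, directly after the treatment, edgeR called 0 collagen genes and 0% of all 17277 genes. At an unadjusted p under 0.05 there were 9 collagen genes (22.5%, against 11% of all genes), and DESeq2 called Col20a1 higher and Col1a1 and Col16a1 lower, beside 2.16% of all genes. Col16a1, a FACIT gene, was at 139.9, 127 and 137 CPM in the control mice and at 104, 102 and 93.7 CPM in the treated mice (log2 fold change -0.43, SE 0.0858, adjusted p = 0.126). Col1a1 was at 526, 536 and 543 CPM in control and at 425, 377 and 301 CPM in treated mice (-0.55, SE 0.12, adjusted p = 0.155). In both genes every treated mouse was below every control mouse. Col1a2 had the same order, with 991, 1127 and 1049 CPM against 966, 848 and 725 CPM (-0.32, adjusted p = 0.352).

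Other collagen genes were on the opposite side at 6 months. Col20a1 was at 23.3, 10.4 and 18.4 CPM in control and at 28.6, 30.7 and 36.8 CPM in treated mice (0.88, SE 0.25, adjusted p = 0.241), again without overlap. Col9a2 and Col11a1 were at 61.9, 77.8 and 54.9 CPM and at 136.6, 140.9 and 85.4 CPM in the treated mice, and both overlapped with the controls (0.36 and 0.62). Col3a1 was at 1118, 961 and 1052 CPM in control and at 1020.1, 983 and 831 CPM in treated mice (-0.15, adjusted p = 0.692). Col4a1 was at 1111, 991 and 868 CPM in treated mice (-0.09, adjusted p = 0.87) and Col4a2 at 712, 617 and 549 CPM (-0.12, adjusted p = 0.846), and all 3 overlapped with the controls. Col9a3 was at 2.63, 3.42 and 3.19 CPM in treated mice, above every control (0.56, adjusted p = 0.476). By class, 8 of 10 fibrillar and 6 of 6 basement membrane genes were below 0 at 6 months, and 4 of 5 cartilage-type genes above 0, and the family's median was -0.13 against 0.00 for all genes. Oocyte markers summed to 343 ± 19.9 CPM in treated and 235 ± 14.3 CPM in control mice, with 8 of 9 at an unadjusted p under 0.05, and macrophage markers to 368 ± 27.6 and 575 ± 87.2 CPM. Their part in these values was not tested. Without mouse 3 of the controls, the library with oviduct markers, 7 collagen genes had an unadjusted p under 0.05 (17.5% against 9.65% of all genes). In that fit 0 collagen genes were called, and 0% of all genes. Without mouse 1 of the treated group Col1a1 was called lower (2.44% of collagen genes called, against 1.18% of all genes). The 9 genes at an unadjusted p under 0.05 became 4 without mouse 2 of the treated group (9.76% against 7.19% of all genes), 5 without mouse 3 of the treated group (12.2% against 11.1%) and 2 with all 24 libraries in 1 fit (5% against 3.96%), but 13 without mouse 1 of the treated group (31.7% against 11.1%) and 17 without a filter on low counts (38.6% against 8.73%).

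Of the 85 pathway genes tested at 6 months, edgeR called 0. DESeq2 called 2 higher and 8 lower of 84, against 0.746% and 1.42% of all genes. At an unadjusted p under 0.05 there were 4 higher and 22 lower, against 5.32% and 5.69% of all genes, but 3 and 12 without mouse 2 of the treated group and 2 and 3 with all 24 libraries in 1 fit. Without mouse 1 of the treated group edgeR called 4 of the 85 lower (0.623% of all genes), with 6 higher and 28 lower at an unadjusted p under 0.05, and without a filter on low counts it called 3 higher and 11 lower of 88 (1.19% and 1.47% of all genes). The degradation genes had 6 of 12 lower at that level. Timp1 was at 95.2, 368 and 143 CPM in control and at 85.1, 26.2 and 29.2 CPM in treated mice (-2.12, unadjusted p = 0.0042, adjusted p = 0.206). Lox gave -0.46, Dcn -0.17 and Serpinh1 0.00, all with an unadjusted p above the threshold. At 9 months edgeR and DESeq2 called 0 pathway genes. At an unadjusted p under 0.05 edgeR had 5 higher and 5 lower of 84 (5.73% of all genes), but 14 and 7 without mouse 1 of the controls (13%).

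At 9 months, after a further 3 months without drug, edgeR called 0 collagen genes (0% of all genes) and 0 had an unadjusted p under 0.05, against 5.73% of all genes, and DESeq2 called 0. The count of 0 at that level was 11 without mouse 1 of the controls (27.5% against 13% of all genes), 5 without mouse 2 of the treated group (12.5% against 3.76%), 5 with DESeq2 (12.5% against 6.01%) and 6 without a filter on low counts (13.6% against 5.05%), and 6 (15% against 6.55%) with same-numbered mice taken as pairs (replicate block). Values were mostly above 0, with 10 of 10 fibrillar genes above 0 and a family median of 0.26 against 0.01 for all genes. Mouse 1 of the treated group carried much of this, and without it the median was 0.06. Col1a1 was at 697, 398 and 330 CPM in control and at 999, 566 and 546 CPM in treated mice (0.56, SE 0.35, adjusted p = 0.853). Col3a1 was at 1863, 799 and 713 CPM and at 2431, 1238 and 1189 CPM (0.52, adjusted p = 0.886). Col1a2 was at 1407, 1069 and 866 CPM in treated mice (0.32, adjusted p = 0.867) and Col4a2 at 939.9, 491 and 783 CPM (0.16, adjusted p = 0.948), both overlapping with the controls. Col9a2 was at 15.8, 40.3 and 22.8 CPM in the treated mice (0.77, SE 0.40), Col11a1 at 54.1, 60.4 and 34.9 CPM (0.13) and Col4a1 at 1627, 748 and 1262 CPM (0.19), and all 3 overlapped with the controls. In Col1a1 and Col3a1, mouse 1 was the highest of the control and of the treated group, and these groups overlapped too. Col7a1, the anchoring fibril collagen, had the smallest unadjusted p at 9 months (0.056), with 11.4, 5.96 and 9.26 CPM in control and 12.8, 12.9 and 14.4 CPM in treated mice, followed by Col27a1 with 75.6, 80.5 and 58.9 CPM and 87.5, 80.7 and 104 CPM (0.34, unadjusted p = 0.0666), and by Col6a5 with 27.6, 13 and 11.7 CPM and 19.5, 43.8 and 29.4 CPM (0.82, unadjusted p = 0.0798). Col9a3 was at 2.06, 2.59 and 3.47 CPM in treated mice (0.54) and overlapped with the controls. Macrophage markers summed to 687 ± 35.0 CPM in treated and 458 ± 38.6 CPM in control mice, and corpus luteum markers to 9145 ± 3104 and 15764 ± 4328 CPM. Their part in these values was not tested.

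The difference between the ABT263 effect at 9 and at 6 months was tested as an interaction in 12 libraries. edgeR and DESeq2 called 0 collagen genes, edgeR called 0% of all genes, and 8 of 40 (20%) had an unadjusted p under 0.05 against 7.33% of all genes. With each mouse left out these 8 became 3 without mouse 3 of the 6-month controls (7.5% against 6.11% of all genes) to 13 without mouse 1 of the 9-month controls (31.7% against 12.6%), and 2 with all 24 libraries in 1 fit (5% against 4.77%). The smallest adjusted p in edgeR were those of Col16a1 (0.68, SE 0.197, adjusted p = 0.445), Col14a1 (-1.18, SE 0.368, adjusted p = 0.484) and Col1a1 (1.11, SE 0.396, adjusted p = 0.55). Positive values mean a higher treated-to-control ratio at 9 months. Of 85 pathway genes edgeR called 0, with 10 above and 7 below 0 at an unadjusted p under 0.05 (7.33% of all genes). These became 6 and 4 with all 24 libraries in 1 fit (4.77%), and 23 and 8 without mouse 1 of the 9-month controls (12.6%). DESeq2 called 1 pathway gene of 86, below 0 (0.513% of all genes). Col14a1, a FACIT gene, was at 5.72, 5.40 and 7.64 CPM in control and 9.28, 8.53 and 11.1 CPM in treated mice at 6 months, and at 8.16, 10.5 and 9.60 CPM and 5.65, 4.39 and 9.30 CPM at 9 months.

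**Figure D4:**
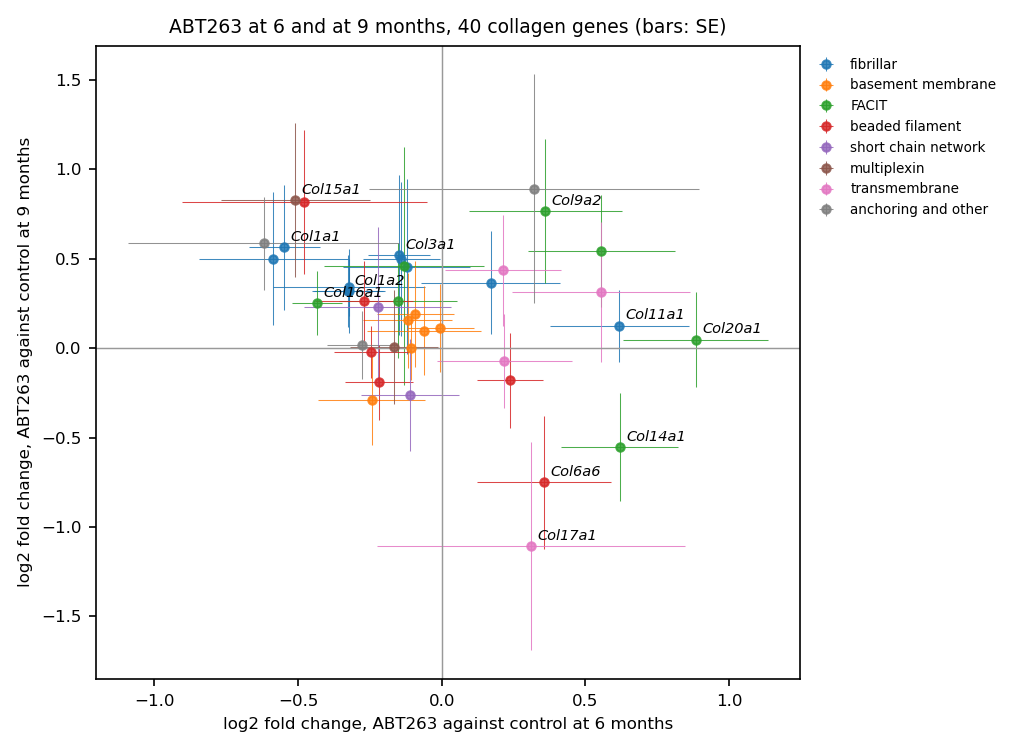
Log2 fold change of 40 collagen genes for ABT263 against control at 6 months (horizontal axis) and at 9 months (vertical axis), with SE bars and colors by class. Most fibrillar genes lie left of 0 and all 10 lie above 0, with Col1a1 at -0.55 and 0.56.

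Within groups, several collagen genes were highest in the same mouse. The mouse with the most Col1a1 in its group also had the most Col5a1 and Col5a2 in 8 of 8 groups, and the most Col3a1, Col4a1, Col15a1 and Col8a1 in 7 of 8. Col5a1 and Col5a2 encode type V collagen, which is built into type I fibrils. Of 39 collagen genes other than Col1a1, 6 (15.4%) were highest in the same mouse in at least 7 groups, against 0.829% of 19426 genes. In at least 6 groups there were 11 (28.2%, against 3.93%), the fibrillar genes Col1a2 and Col5a3 among them with 6 each. Of the other fibrillar genes, Col11a1 was highest in that mouse in 0 groups, Col24a1 in 2, and Col27a1 and Col11a2 in 3, and Col11a2 was lowest in it in 4. Col6a4, a type VI chain, and Col9a3 were lowest in it in 6 groups, which is 5.13% of the collagen genes against 3.49% of all genes and near the background. Col6a4 was at 92.2 CPM in mouse 2 at 12 months, against 297 and 258 CPM in its group. These counts describe the 24 libraries and share their makeup of cells, and no test was made of them.

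**Figure D5:**
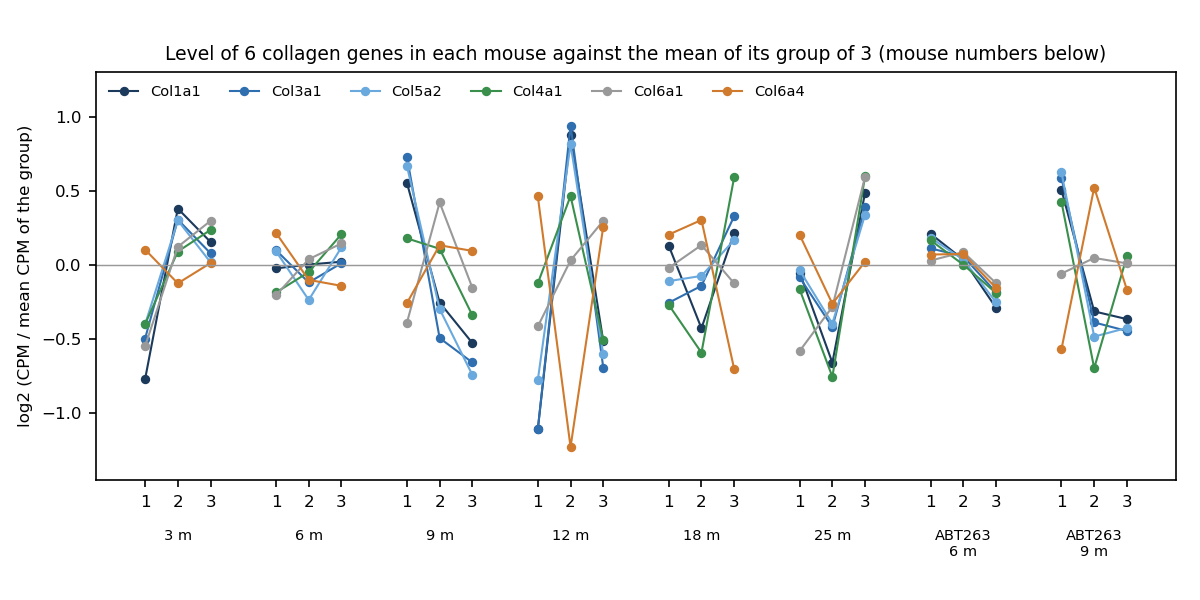
Log2 ratio of each mouse's CPM to the mean of its group of 3 for Col1a1, Col3a1, Col5a2, Col4a1, Col6a1 and Col6a4 in the 8 groups (horizontal axis, mouse numbers). In mouse 2 at 12 months Col1a1, Col3a1 and Col5a2 stand highest and Col6a4 lowest.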

How the data were processed

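The authors deposited read counts per gene as whole numbers without normalization for 24 ovary libraries made from total RNA with an NEBNext Ultra kit. The submitters' processing notes name STAR and mm10, and the counting program and its strand setting are not given in the sources used here. Of 54532 gene identifiers, 54495 were in GENCODE release M21, which gave symbols, coordinates and union exon lengths. Levels are CPM with TMM normalization over 24 libraries, divided by exon length in kilobases where genes are compared. Models were fitted to the groups compared with edgeR 4.0.16 in R 4.3.3 (TMM, filterByExpr, quasi-likelihood F test, Benjamini-Hochberg adjustment), the interaction on 12 libraries and the differences among ages on 18. SE is the size of the log2 fold change divided by the square root of F. Nothing says whether mice of a group shared a cage or a day, so a group difference cannot be told apart from such a shared effect. The p-values set the group difference against the spread between these mice, moderated over the genes tested.

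Alternatives were RLE normalization, DESeq2 1.42.0, no filter, at least 10 counts in every library, all 24 libraries in 1 fit, same-numbered mice as pairs, and each mouse left out in turn. Deviations of same-numbered mice had a correlation above 0.1 in all 3 pairs at 18 against 3 months (0.15, 0.18 and 0.25). This held in no other comparison (0.045, 0.016 and 0.072 at 25 months). The labels state no pairing of mice between ages, so the fits with same-numbered mice as pairs are given as alternatives only. In the 276 pairs of libraries compared, counts differed by more than sampling noise (chi-square per degree of freedom of at least 12.9). The scripts were tested on simulated data. The collagen classes, the pathway and marker lists and the tests were chosen with earlier results of these data known. In each comparison, values of every mouse are given for up to 3 called genes per direction, by size of change and without overlap of the groups, or where none was called for those with the smallest unadjusted p, and for Col1a1, Col1a2, Col3a1, Col4a1, Col4a2, Col9a2, Col9a3 and Col11a1, with Col2a1, Col9a1 and Col10a1 given by their range. Plots were made with matplotlib 3.10.9 under Python 3.11.15.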

Additional observations from a re-analysis of the deposited data

How the results depend on the processing

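No gene called at 18 or 25 months changed direction under the alternatives, but the family's median crossed 0 with each mouse left out in turn at 6 months (-0.11 to 0.14), 9 months (-0.39 to 0.0017) and 12 months (-0.034 to 0.34). The number of collagen genes called lower at 9 months was 0, but 2 with DESeq2 (1.64% of all genes lower) and 3 without a filter on low counts (0.967%). At 12 months it was 0, but 1 without the filter (0.471%) and 1 with all 24 libraries in 1 fit (0.518%). It was 0 to 2 with each mouse left out in turn, with the 2 without mouse 1 at 12 months (0.756%). Collagen genes called higher at 18 months numbered 1, but 3 with DESeq2 (6.88% of all genes higher) and 2 without the filter (4.48%). They numbered 2 with 24 libraries (6.78%) and 2 with the replicate block (6.19%). With each mouse left out they numbered 0 to 4, with the 4 without mouse 3 at 18 months (9.8%). Collagen genes called lower at 25 months numbered 4, but 7 with DESeq2 (10.3% of all genes lower) and 7 with 24 libraries (15.3%). With each mouse left out they numbered 2 to 12, with the 12 without mouse 3 at 25 months (14.9%). The family's median in these fits ran from -0.43 to -0.052. For ABT263 at 6 months, DESeq2 called 1 higher and 2 lower (0.746% and 1.42% of all genes), in place of 0 and 0. The fit without the filter called 2 and 3 (1.19% and 1.47%). With each mouse left out 0 to 1 were lower, with the 1 without mouse 1 of the treated group (0.623%). The family's median for ABT263 at 9 months ran from 0.064 to 0.37 with each mouse left out. RLE normalization and the filter of 10 counts kept the called genes at 18 and 25 months. With same-numbered mice as pairs, 5 higher and 6 lower were called at 25 months (13.4% and 10.3% of all genes). The labels state no such pairs, although each 3-month mouse resembled the 25-month mouse of its own number most. Col1a1 and Col3a1 spread widely between mice in some groups, and the size of change that 3 mice a group can detect was not tested. Col2a1, Col9a1, Col10a1 and Col19a1 were below the filter on low counts with all mice in the fit.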
